A study of Homo sapiens with 6 samples.

Results

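The genes described here encode the secreted ligands of the TGF-beta superfamily, that is the TGF-beta isoforms, the bone morphogenetic proteins (BMPs), the growth and differentiation factors (GDFs), the inhibin and activin subunits, nodal, the lefty proteins and anti-Müllerian hormone. The 33 genes were chosen by gene name, a rule that uses no measured value, although earlier results of these data were known when the family was chosen. Of these, 32 had at least 1 probe set that the platform annotation assigns to a single gene, out of 18132 such genes on the array, and they held 58 of the 44988 single-gene probe sets. The remaining gene, GDF1, shares both of its probe sets with CERS1.

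The samples were cultures of LX-2, a human cell line of hepatic stellate origin, each hybridised to its own Affymetrix 3′ array, 6 arrays in all. The control group was 3 samples of LX-2 that received 0 ng/ml recombinant human BMP9, and the BMP9 group was 3 samples that received 50 ng/ml. All 6 had been without serum for 12 h before and were collected after 24 h of treatment. Both groups are a single cell line, the labels call the samples biological replicates without naming separate cultures, and the p-values therefore measure the spread between these samples. Values are RMA levels per probe set as deposited, taken to be on the log2 scale. A difference is BMP9 minus control, with the standard error (SE) of limma's moderated fit over all genes. The p-values were adjusted by the Benjamini-Hochberg method over all of them.

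Most ligands of this family are made as precursors that are cleaved to dimers, many of them disulphide-linked. Most of these dimers bring together type I and type II serine/threonine kinase receptors at the cell surface. BMPs and several GDFs signal mainly through SMAD1, SMAD5 and SMAD9, whereas TGF-betas, activins, nodal, myostatin and GDF11 signal mainly through SMAD2 and SMAD3. In the liver, BMP9 (the product of GDF2) is made largely by stellate cells and acts on endothelial cells and hepatocytes, and TGF-beta1 is the best-known driver of matrix production by activated stellate cells.

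The addition of BMP9 protein was followed by a change past the threshold in 1 ligand gene, INHBB, whose signal was 1.88-fold lower. Of the 32 genes tested, 0 rose and 1 fell at a limma adjusted p under 0.05. Over all 18132 genes, 0.684% were called, 0.452% lower and 0.232% higher, and 1 call among 32 genes is a single gene, not a pattern over the family. The other 31 genes differed by between -0.28 and 0.31 on the log2 scale. On the deposited scale, the 95% interval of each of these 31 differences lay inside a 1.5-fold change in either direction. The lowest bound was -0.52 and the highest 0.53. With the arrays scaled to their poly-A controls this did not hold. The differences of TGFB3 (0.78) and GDF15 (0.66), among others, were then beyond the 1.5-fold limit of 0.585. On the deposited scale, leaving out 1 array moved the difference of 25 of the 31 by over 1.5 times or turned its sign, which it did in 6. The median difference over the 32 genes was -0.025, beside 0.014 over all genes, and the median absolute difference was 0.11, beside 0.084. With all probe sets tested on their own, 1 of 58 ligand probe sets was called, beside 0.436% of all probe sets.

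**Figure D1:**
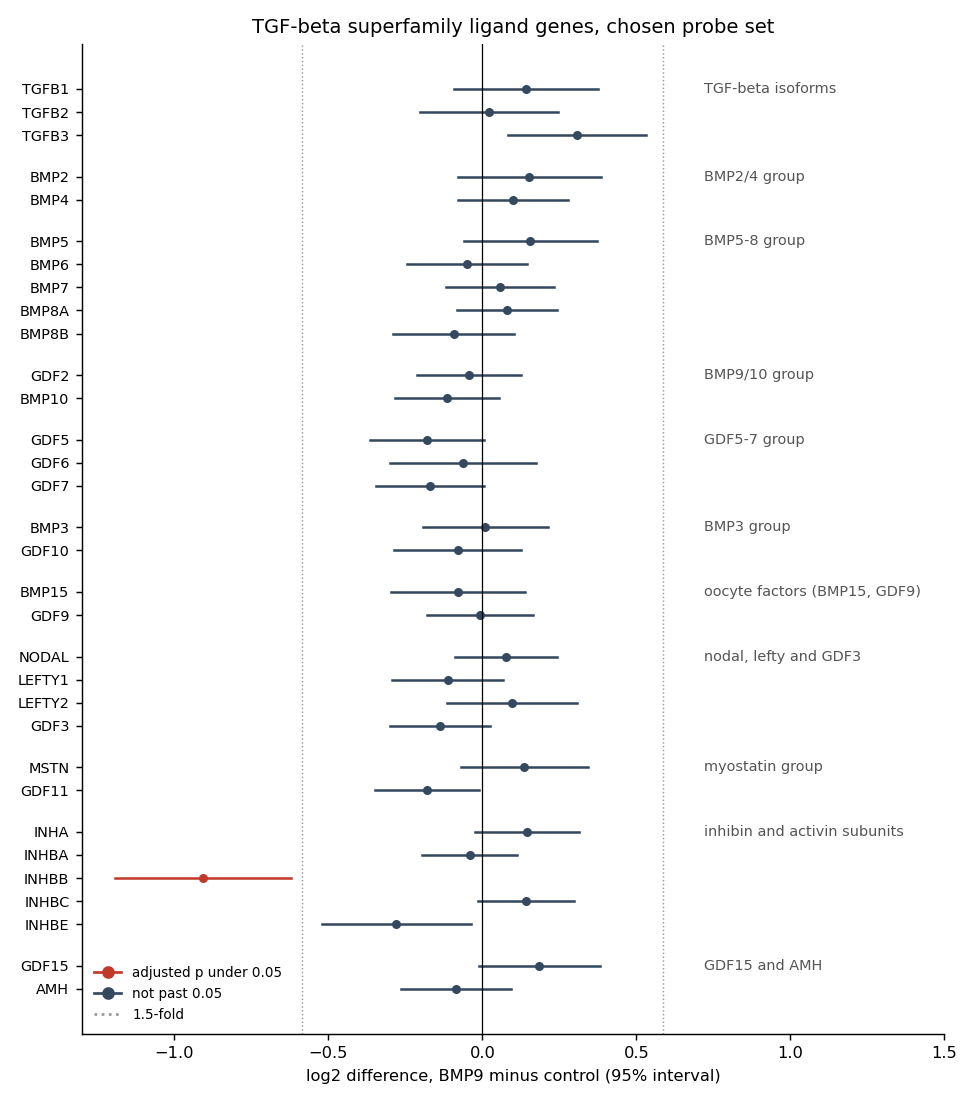
Log2 difference (BMP9 minus control, x axis) of the chosen probe set of each of the 32 ligand genes (y axis), grouped by subfamily, with limma's 95% interval, on the deposited scale. The interval of INHBB (red) lies between -1.19 and -0.62, and the other 31 intervals (dark) lie between the dotted lines at a 1.5-fold change; with the arrays scaled to their poly-A controls, every negative difference except that of INHBB turned positive.

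INHBB encodes the beta-B subunit, which forms activin B as a homodimer and inhibin B together with the alpha subunit. Its log2 level was 6.17, 6.07 and 6.20 on control replicates 1, 2 and 3, and 5.55, 5.20 and 4.97 on BMP9 replicates 1, 2 and 3. The highest BMP9 array stood below the lowest control array, and the BMP9 arrays were more spread out (5.24 ± 0.29 against 6.15 ± 0.069, SD, n = 3 arrays per group). The difference was -0.91 (SE 0.13, 95% interval -1.19 to -0.62, limma adjusted p = 0.0103), the 56th smallest p of all genes. INHBB has 1 probe set, so no other probe set could be set beside it. The call was lost without control replicate 1 (limma adjusted p = 0.0667), control replicate 3 (0.0548) or BMP9 replicate 2 (0.0679), with differences between -0.90 and -0.88. The array's spiked poly-A control probe sets also differed between the BMP9 arrays, with mean log2 values of 5.44, 5.25 and 5.05 on replicates 1, 2 and 3 against 5.67, 5.78 and 5.70 on control. Scaling the arrays to those controls left INHBB lower by 0.43 (difference -0.43, SE 0.16, limma adjusted p = 0.00875). That adjusted p is not a stronger result than the one on the deposited scale, because the difference is smaller, its SE larger, and the adjustment lenient where 89.8% of all genes are called higher.

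INHBA encodes the beta-A subunit of activin A and inhibin A. Its brighter probe set stood at 6.54, 6.57 and 6.55 on the control arrays and at 6.54, 6.48 and 6.51 on the BMP9 arrays. These groups overlapped, and the difference was -0.042 (95% interval -0.20 to 0.11, limma adjusted p = 0.850), a sign that turned positive with both control scalings and when probe sets were averaged. The dimmer INHBA probe set averaged 2.49 ± 0.16 on the control arrays (SD, n = 3) and differed by 0.20. The log2 ratio of INHBB to INHBA within an array does not depend on how arrays are scaled. It was -0.37, -0.50 and -0.34 on the control arrays and -0.99, -1.28 and -1.54 on the BMP9 arrays. All 3 BMP9 arrays lay below all 3 control arrays, a change of -0.87 in the ratio (two-sided exact permutation p = 0.1, the smallest that 3 against 3 arrays allow). This pair of genes was set side by side with their values known, so the ratio is a description. Since INHBB was already lower and INHBA hardly differed, the permutation p does not count as a test.

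The sequence before an annotated start of each of these genes is shown next. INHBB is the ligand gene that was called, and INHBA a close paralogue that was not. Printed here are the 250 bases before that start, from RefSeq, build GRCh38.p14, 5′ to 3′ on the gene's strand. The INHBB window ends where the annotated span of the gene begins. The INHBA window lies inside the annotated span of its gene (41685114 to 41705406), so the windows are not at like positions. Capitals mark GGCGCC, a GC-rich element that SMAD1 and SMAD5 can bind and that reads the same on both strands; CAGAC, a core of SMAD3 and SMAD4 binding, was searched on both strands too and would also be in capitals. The 2 motifs did not overlap.
INHBB, chr2:120345886-120346135, plus strand: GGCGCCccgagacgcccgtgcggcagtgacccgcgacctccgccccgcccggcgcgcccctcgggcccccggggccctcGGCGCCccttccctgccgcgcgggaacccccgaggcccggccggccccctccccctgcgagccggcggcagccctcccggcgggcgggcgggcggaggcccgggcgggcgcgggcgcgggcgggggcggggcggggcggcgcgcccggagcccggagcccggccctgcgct
INHBA, chr7:41703091-41703340, minus strand: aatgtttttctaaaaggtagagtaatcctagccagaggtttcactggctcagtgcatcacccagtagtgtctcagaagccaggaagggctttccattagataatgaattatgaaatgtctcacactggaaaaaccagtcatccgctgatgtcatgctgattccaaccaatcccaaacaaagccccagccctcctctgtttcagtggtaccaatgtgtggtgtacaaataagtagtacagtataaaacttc
The INHBB window was 89.6% G or C and held GGCGCC at 2 places and CAGAC at 0. The INHBA window was 42.8% G or C and held 0 of either. Of 35116 promoter windows of this length in the table, 16.4% held GGCGCC and 38.0% held CAGAC. Of 32 windows of ligand genes, 7 held GGCGCC (21.9%) and 15 held CAGAC (46.9%). Of the 1153 windows with at least 80% G or C, 58.4% held GGCGCC. Of the 26 ligand genes with a window in the table, 6 held GGCGCC in at least 1 window (AMH, BMP4, GDF1, GDF10, GDF9 and INHBB) and 12 held CAGAC. A match is a description of the letters, and the other 5 genes with GGCGCC were not called or, for GDF1, not tested.

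INHA encodes the alpha subunit that turns activin subunits into inhibins. It stood at 5.05, 4.87 and 4.98 on the control arrays and at 5.12, 5.12 and 5.10 on the BMP9 arrays. The groups did not overlap, but the difference of 0.15 was not called (SE 0.076, limma adjusted p = 0.459). INHBC, a beta-C subunit gene best known from hepatocytes, averaged 5.10 ± 0.031 on the 3 control arrays and 5.24 ± 0.027 on the 3 BMP9 arrays (SD), again without overlap and without a call (difference 0.14, limma adjusted p = 0.435). INHBE, the beta-E subunit gene of hepatocytes, was dim, at 2.49, 2.33 and 2.73 on control and 2.13, 2.34 and 2.24 on the BMP9 arrays. These overlapped, and the difference of -0.28 was not called (SE 0.11, limma adjusted p = 0.319) and turned positive with poly-A scaling. Of the 5 inhibin and activin subunit genes, 1 fell and 4 did not pass.

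The TGF-beta isoforms, ligands of TGFBR2 and TGFBR1, were not called. TGFB3 had the largest positive difference of the 32 genes. Its log2 level was 4.544, 4.449 and 4.509 on the control arrays and 5.008, 4.804 and 4.613 on the BMP9 arrays. The groups did not overlap, with a difference of 0.31 (SE 0.10, 95% interval 0.084 to 0.53, limma adjusted p = 0.235), and the interval, which is not adjusted for the number of genes, excluded 0. The other TGFB3 probe sets were dimmer and differed by 0.25 and -0.040, each with overlapping groups. TGFB1 stood at 4.13, 4.03 and 4.16 on control and 4.14, 4.11 and 4.49 on the BMP9 arrays. BMP9 replicate 3 was the high array, and without it the difference of 0.14 became 0.019. TGFB2 averaged 4.81 ± 0.079 on the 3 control arrays and 4.83 ± 0.19 on the 3 BMP9 arrays (SD), a difference of 0.021 whose sign changed when its probe sets were averaged.

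**Figure D2:**
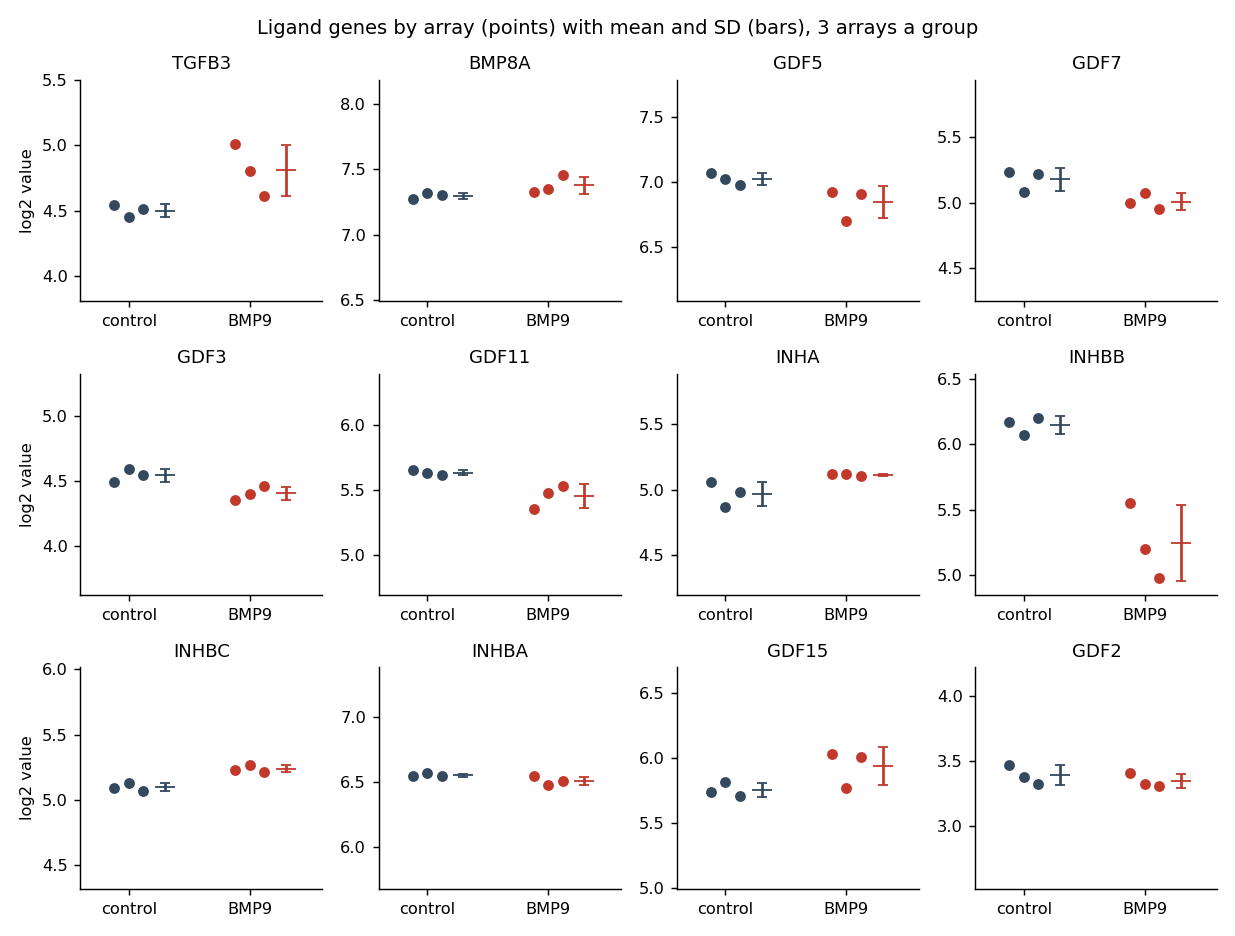
Log2 level (y axis, each panel spanning the same range) on the 3 control and 3 BMP9 arrays (points) with mean and SD (bars), for the 9 ligand genes whose groups did not overlap and for INHBA, GDF15 and GDF2. INHBB drops from between 6.07 and 6.20 to between 4.97 and 5.55, while the other panels differ by at most 0.31; with poly-A scaling the lower panels other than INHBB turn positive.

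GDF2, the gene of BMP9 itself, was at 3.47, 3.38 and 3.32 on the control arrays and 3.41, 3.33 and 3.31 on the BMP9 arrays. The groups overlapped, with a difference of -0.042 (95% interval -0.21 to 0.13, limma adjusted p = 0.860) that turned positive with both control scalings. The added protein is not measured by the array. BMP10, whose product is the nearest relative of BMP9 and is known from the heart, differed by -0.12 (limma adjusted p = 0.561, positive with both control scalings), from 5.68 ± 0.033 to 5.56 ± 0.087 (SD, n = 3).

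The classical BMP genes were not called either. BMP2 and BMP4, close relatives that induce bone and pattern many tissues, differed by 0.15 and 0.099 (limma adjusted p = 0.582 and 0.648), and by 0.039 without control replicate 2 and 0.047 without control replicate 1, respectively. BMP4 stood at 4.69, 4.82 and 4.88 on control and 4.86, 4.86 and 4.97 on the BMP9 arrays, with overlap. Within the BMP5 to BMP8 group, BMP6, the endothelial ligand that drives hepcidin in the liver, averaged 4.39 ± 0.067 on the 3 control arrays and 4.34 ± 0.14 on the 3 BMP9 arrays (SD), a difference of -0.050 whose sign turned with both control scalings and when probe sets were averaged. A dimmer BMP6 probe set had groups that did not overlap, at 3.66, 3.76 and 3.50 on control and 3.78, 3.90 and 3.81 with BMP9 (difference 0.19, limma adjusted p = 0.454 over all probe sets). BMP5, BMP7 and BMP8A differed by 0.15, 0.058 and 0.081, and BMP8B by -0.094, of which BMP7 turned negative, and BMP8B positive, when probe sets were averaged. The BMP8A probe set is 1 of 2 for that gene, and its identifier marks it as sharing probes with other transcripts. Its 3 BMP9 arrays (7.33, 7.35 and 7.45) lay above its 3 control arrays (7.27, 7.32 and 7.30), though by less than the fit could call (limma adjusted p = 0.688).

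GDF5, GDF6 and GDF7, which pattern joints, skeleton and roof plate, had negative differences on the deposited scale, all of which turned positive with both control scalings. GDF5 stood at 7.07, 7.02 and 6.98 on control and 6.93, 6.71 and 6.91 on the BMP9 arrays, without overlap (difference -0.18, SE 0.083, limma adjusted p = 0.404). GDF7 stood at 5.234, 5.079 and 5.222 on control and 4.999, 5.076 and 4.947 on the BMP9 arrays (difference -0.17, limma adjusted p = 0.399). Its groups did not overlap, but the nearest arrays, control replicate 2 and BMP9 replicate 2, lay within the SD of either group of each other. GDF6 was at 2.74 ± 0.13 in control (SD, n = 3) and differed by -0.064, and its other probe set by 0.16. BMP3 and GDF10, which are related to each other and oppose or diverge from the osteogenic BMPs, differed by 0.0089 and -0.080 and were not called.

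GDF11 and MSTN encode close relatives that act through activin receptors, the latter as the muscle growth inhibitor myostatin. The chosen GDF11 probe set stood at 5.65, 5.63 and 5.61 on control and 5.35, 5.47 and 5.53 on the BMP9 arrays, without overlap, a difference of -0.18 (95% interval -0.35 to -0.010, limma adjusted p = 0.358). The other GDF11 probe sets differed by 0.20 and -0.23, neither called, so that the gene's probe sets did not share a sign, and the sign of the chosen one turned with both control scalings. MSTN was dim, averaging 2.99 ± 0.12 on the 3 control arrays and 3.13 ± 0.12 on the 3 BMP9 arrays (SD), and was not called (difference 0.14, limma adjusted p = 0.581).

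NODAL, a ligand of early embryonic patterning, and its inhibitors LEFTY1 and LEFTY2 differed by 0.077, -0.11 and 0.096, and were not called; without single arrays LEFTY1 ranged from -0.17 to -0.065 and LEFTY2 from 0.019 to 0.20. GDF3, also an embryonic factor, stood at 4.49, 4.59 and 4.54 on control and 4.36, 4.40 and 4.46 on the BMP9 arrays, without overlap (difference -0.14, limma adjusted p = 0.464, positive with both control scalings). The oocyte factors GDF9 and BMP15 differed by -0.0090 and -0.080. AMH, the hormone that regresses the Müllerian ducts, differed by -0.084, with 0.13 and -0.042 in its other probe sets.

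GDF15, a cytokine of cell stress that acts on the receptor GFRAL in the hindbrain, stood at 5.74, 5.81 and 5.70 on control and 6.03, 5.77 and 6.01 on the BMP9 arrays in its brightest probe set. BMP9 replicates 1 and 3 were above all control arrays and replicate 2 was among them, and the difference of 0.18 was not called (SE 0.088, 95% interval -0.011 to 0.38, limma adjusted p = 0.417). GDF15 has 5 probe sets, whose differences were 0.18, -0.038, 0.30, 0.11 and -0.0023 from the brightest to the dimmest, none called.

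Of the 33 genes, GDF1 was not tested. Its 2 probe sets, both shared with the ceramide synthase gene CERS1, averaged 5.58 ± 0.24 and 4.61 ± 0.15 on the 3 control arrays, and 5.48 ± 0.070 and 4.500 ± 0.22 on the 3 BMP9 arrays (SD), with overlapping groups in each. A probe set shared by BMP8A and BMP8B went from 4.67 ± 0.23 to 4.86 ± 0.074 (SD, n = 3), also with overlap.

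In 9 of 32 ligand genes (28.1%) the groups did not overlap, 4 with BMP9 above control and 5 below, while over all genes this share was 18.8%. Among the 5 that lay below, GDF3, GDF5, GDF7 and GDF11 had differences no larger than 0.18 in size. Of the 32 genes, 4 had an unadjusted p under 0.05 (12.5%, beside 12.9% of all genes), namely INHBB, TGFB3, INHBE and GDF11. That share is close to the share over all genes.

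Probe sets of a gene often differed in level and in sign. Several probe sets were present for 17 of the 32 genes and 1 for the other 15. The 26 probe sets that were not chosen had a median level of 3.26, and 0 of them were called by limma, with 1 at an unadjusted p under 0.05 (3.85%, beside 11.4% of all probe sets). Levels of different probe sets are not on a common scale, since each probe binds with its own strength.

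**Figure D3:**
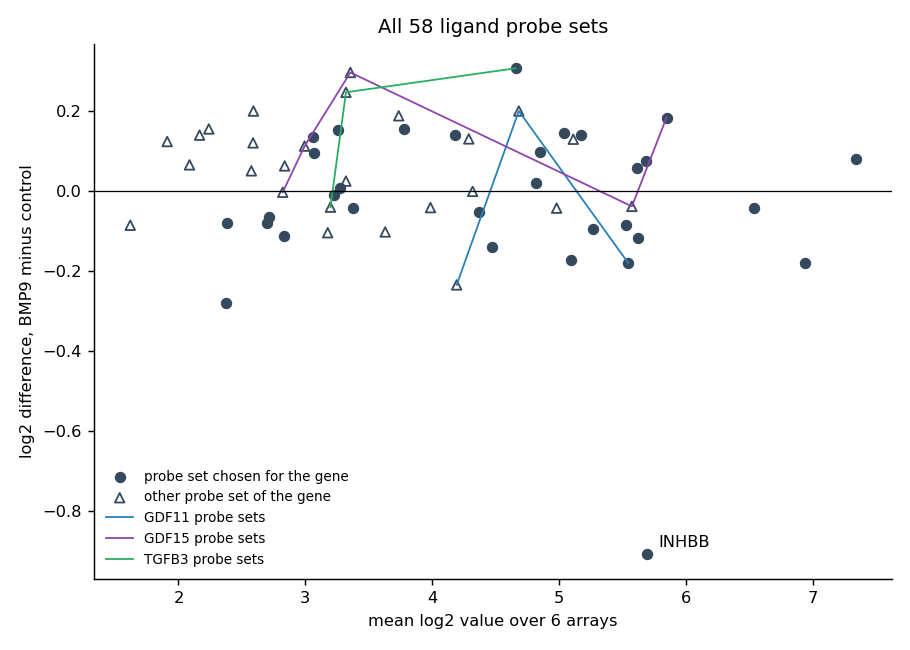
Mean log2 level over the 6 arrays (x axis) and log2 difference, BMP9 minus control (y axis), of all 58 ligand probe sets on the deposited scale, with filled circles for the probe set chosen for each gene, triangles for the others and lines joining the probe sets of GDF11, GDF15 and TGFB3. INHBB at -0.91 stands apart from the other 57, which lie between -0.28 and 0.31, and the probe sets of GDF11 fall on both sides of 0.

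How far the ligand signals rise above background is not known, because no detection calls were used. The chosen probe sets had mean log2 levels from 2.38 to 7.34. For 333 olfactory receptor genes, taken as genes with no known role in this line, the 5th to 95th percentiles were 2.16 to 5.50. Of the ligand genes, 22 lay within that range and 10 above it. INHBB averaged 6.15 on the control arrays, above the range, and 5.24 on the BMP9 arrays, inside it. The array's own background probe sets, which match no human sequence and are binned by G and C content, ranged from 1.58 to 10.1 over the 6 arrays, mostly rising with that content, and differed by at most 0.21 between the groups. In a dim gene the absence of a call, and the narrow interval, describe the probe set's signal and do not show that the transcript was unchanged.

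The arrays' control probe sets were lower with BMP9, by 0.21 for the hybridisation controls (difference -0.21) and by 0.47 for the poly-A controls (difference -0.47). Scaling each array to them moved the median difference of all genes from 0.014 to 0.23 and 0.49. The call counts then turned round. With hybridisation scaling 12 ligand genes were called higher and 1 lower, beside 4843 higher and 72 lower over all genes. With poly-A scaling 27 were higher and 1 lower, beside 16288 and 22. Of the 17 ligand genes with a negative difference on the deposited scale, 15 turned positive with hybridisation scaling and 16 with poly-A scaling, INHBB being negative in both and INHBE in the first. Since each scaling adds 1 shift per array to every gene, the distance of INHBB from the median of all genes, -0.92, is the same by construction. The share called higher was 37.5% of the ligand genes and 26.7% of all genes with hybridisation scaling, and 84.4% and 89.8% with poly-A scaling, so a ligand's call in either says little about that ligand.

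**Figure D4:**
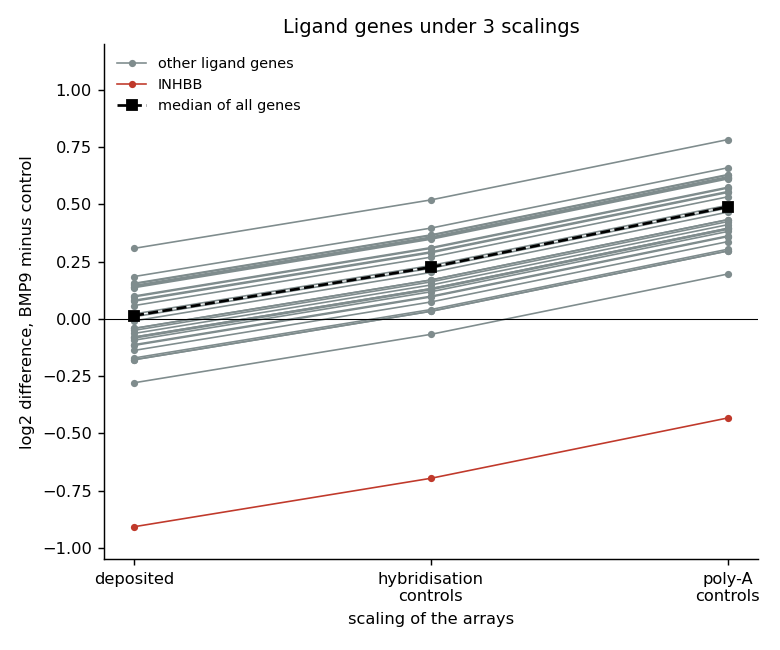
Log2 difference, BMP9 minus control (y axis), of the 32 ligand genes (lines) and the median of all genes (dashed) with the arrays as deposited or scaled to hybridisation or poly-A controls (x axis). All lines rise together, the median from 0.014 to 0.49, and INHBB is the line that remains below 0, at -0.91, -0.70 and -0.43.

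Genes that receive, modify or block these ligands, and SMAD1/5/9 target genes, were read from 5 lists with 62 measured members. Of the 62, 5 rose and 2 fell (0.684% of all genes were called in either direction). Of the 5 that rose, 4 were SMAD1/5/9 target genes, and the other was the antagonist gene GREM1. Of 11 receptor genes, ACVR2A, a type II receptor for activins and several BMPs, went from 8.51 ± 0.092 to 7.85 ± 0.14 (SD over 3 arrays each). It fell by 0.66 (SE 0.091, limma adjusted p = 0.00945), and 0 rose. ACVRL1 (-0.027, positive with both control scalings) and BMPR2 (0.047), which are among the receptors of BMP9 but not all of them, were not called. Of 7 co-receptor genes RGMB, which binds BMPs, fell by 0.57 (limma adjusted p = 0.0211), and 0 rose; ENG (0.038) and GFRAL (0.21) were not called. The calls of ACVR2A and RGMB were lost with poly-A scaling (differences -0.18 and -0.098). That of ACVR2A was also lost without probe sets that share probes (-0.55), taken as those with the suffix a, s or x. The suffix a can mark probes common to transcripts of the same gene, so this setting is not limited to probes shared between genes. The ACVR2A call was also lost without control replicate 1 or 3 or BMP9 replicate 2 or 3 (-0.65 to -0.59). That of RGMB was lost when probe sets were averaged (-0.29) and without control replicate 2 or 3 or BMP9 replicate 1 or 2 (-0.58 to -0.50).

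Of 15 antagonist genes GREM1, which binds BMP2, BMP4 and BMP7, rose by 1.67 (SE 0.20, limma adjusted p = 0.00394) and 0 fell. That call rests on its brightest probe set. It was lost when probe sets were averaged (0.36), and the brightest probe set without the suffix a, s or x differed by -0.098. FST, the activin-binding follistatin, differed by -0.14 (limma adjusted p = 0.465, positive with both control scalings), from 8.01 to 7.88. Of 19 genes of ligand processing, latency and activation 0 passed in limma, with 5 at an unadjusted p under 0.05 (26.3%, beside 12.9% of all genes). That share was 36.4% for the receptor, 71.4% for the co-receptor, 20% for the antagonist and 50% for the SMAD1/5/9 target list, so this list was not the highest. Of 10 SMAD1/5/9 target genes SMAD6, ID3, ID4 and ID2 rose and 0 fell. SMAD6 rose by 3.01, ID3 by 1.63, ID4 by 0.99 and ID2 by 1.21. Without probe sets that share probes, the SMAD6 difference was 0.24 and that of ID4 0.13, neither called. When probe sets were averaged the SMAD6 difference was 1.99, still called, and the calls of ID4 (0.28) and ID2 (0.74) were lost. The call of ID2 (limma adjusted p = 0.0492) was also lost without control replicate 2 (1.32) or any single BMP9 replicate (1.18 to 1.24).

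For the cell type, the arrays were compared with marker lists. The mean log2 level of 12 stellate or myofibroblast markers was 7.002 to 7.102 on the control and 6.94 to 6.99 on the BMP9 arrays. Single markers in control were at 11.6 for VIM, 9.73 for COL1A1, 3.90 for ACTA2 and 4.13 for LRAT, the last 2 being defining markers of activated and quiescent stellate cells. The lists of hepatocyte, endothelial, leukocyte and cholangiocyte markers had means between 3.56 and 4.87 on all arrays. Their single markers in control ranged from 1.92 for EPCAM to 6.99 for CD68, with VWF at 5.83, KDR at 5.78 and TTR at 5.73. Of these 23 genes, 0 were called by limma and 3 had an unadjusted p under 0.05 (12.9% over all genes). Of the 12 stellate markers 1, COL3A1, was called lower (difference -1.29, limma adjusted p = 2.4e-05). The other stellate markers differed by between -0.37 (VIM) and 0.21 (LRAT), so the lower list mean with BMP9 rests mainly on COL3A1. Because these are different probe sets without detection calls, the levels are given as a description and do not settle which markers are present. The arrays' medians lay between 3.55 and 3.57, and the number of arrays limits the precision.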

How the data were processed

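Per the submitters' processing notes, the authors deposited log2 values made with RMA, 1 per probe set; the software and settings used for it are not stated in the labels, and the log base was taken from RMA's usual output. RMA subtracts background and equalises the arrays by quantiles, which can hide a shift common to most transcripts. Of 49395 probe sets, 102 were array controls, 1832 carried several gene symbols and 2473 none. For each gene the brightest single-gene probe set (mean over the 6 arrays) was used, with no filter on dim values. BMP9 and control were compared in limma 3.58.1 (lmFit, eBayes) under R 4.3.3, with no covariate; p-values were adjusted across genes by the Benjamini-Hochberg method and called under 0.05; the same fit was run over all single-gene probe sets. It was tested on simulated data with spreads taken from the control arrays. There, 91% of 200 genes changed by 1 on the log2 scale were recovered among 18132. That share does not describe smaller changes, such as the -0.28 to 0.31 of the ligand genes not called. Names and positions come from the GRCh38.p14 gene table. All ligand genes are named; of the other pathway lists, genes past the threshold, ACVRL1, BMPR2, ENG, GFRAL and FST. COL3A1, VIM, COL1A1, ACTA2, LRAT, EPCAM, CD68, VWF, KDR and TTR are named from the marker lists. Alternatives were a replicate-number block, quantile normalisation, median centring, scaling to control probe sets, and a minimum mean log2 value of 5. Others were averaging a gene's probe sets, omitting those that share probes (suffix a, s or x), an intensity trend with robust prior, and each array left out. The suffix a can mark probes common to transcripts of the same gene. The genes, lists and alternatives were chosen with earlier results of these data known. No 2 arrays held the same values (at most 0.00405% identical). Figures used matplotlib 3.10.9.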

Additional observations from a re-analysis of the deposited data

How the results depend on the processing

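Across the alternatives, INHBB had a negative difference in all 15 (-1.06 to -0.43) and was called in 12. Of those 12, 2 were the control scalings, where most or many genes were called. The 3 exceptions each left out 1 array, and without single arrays its difference was -1.06 to -0.77. Since INHBB has 1 probe set, averaging and omission of shared probes could not change its values. The minimum mean, replicate block and intensity trend also left its difference the same by construction. The sign in these settings was therefore fixed in advance. The ligand count was 1 in every alternative other than the control scalings (13 with hybridisation and 28 with poly-A) and the left-out arrays (0 to 1), and the count of ligand probe sets 21, 53 and 0 to 1 there. The counts over all genes were 4915 with hybridisation scaling, 16310 with poly-A scaling, 267 with a minimum mean of 5 (of 6744 genes), 17 without probe sets with shared probes (of 8354 genes), 285 with the intensity trend and 54 to 78 without single arrays. Of the other pathway genes, 29 were called with hybridisation scaling, 54 with poly-A scaling, 2 without shared probes and 4 to 6 without single arrays. The labels do not say whether replicate numbers pair the samples. Deviations from the group means correlated by 0.0038, 0.046 and -0.021 for same-numbered arrays, and by -0.073 to 0.063 for differently numbered ones. These values show no sign of pairing but cannot exclude it. With the replicate block, 94 genes and 1 ligand gene, INHBB (limma adjusted p = 0.0125), were called. Without single arrays the difference was -0.071 to 0.12 for TGFB2, -0.14 to 0.039 for GDF6, -0.094 to 0.022 for ACVRL1, -0.068 to 0.091 for BMP3, -0.14 to 0.0026 for BMP15, -0.024 to 0.17 for BMPR2, -0.056 to 0.024 for GDF9, -0.12 to 0.013 for BMP6, -0.73 to -0.59 for ACVR2A, -0.64 to -0.50 for RGMB and 0.87 to 1.44 for ID2.

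Signs turned as follows. With hybridisation and then poly-A scaling, which add a shift to every gene, BMP6 stood at 0.16 and 0.42, BMP8B at 0.12 and 0.38, BMP10 at 0.095 and 0.36, BMP15 at 0.13 and 0.40, GDF2 at 0.17 and 0.43, GDF3 at 0.074 and 0.34, GDF5 at 0.033 and 0.30, GDF6 at 0.15 and 0.41, GDF7 at 0.041 and 0.30, GDF9 at 0.20 and 0.47, GDF10 at 0.13 and 0.40, GDF11 at 0.033 and 0.30, INHBA at 0.17 and 0.43, LEFTY1 at 0.099 and 0.36, AMH at 0.13 and 0.39, ACVRL1 at 0.18 and 0.45, FST at 0.075 and 0.34, and INHBE at 0.20 with poly-A scaling. BMP3 turned to -0.0044 with quantile normalisation and -0.0029 with centring. Averaging probe sets turned TGFB2 to -0.0098, BMP6 to 0.069, BMP7 to -0.022, BMP8B to 0.012, GDF6 to 0.046, INHBA to 0.079 and AMH to 0.0013. Leaving out shared probes turned BMP6 to 0.19, GDF6 to 0.16, INHBA to 0.20 and GREM1 to -0.098. Apart from the added shift and the smaller numbers of genes or samples, the cause was not tested. Without detection calls, dim probe sets limit what a missing call can show.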
